A study of Mus musculus with 9 samples.

Results

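Transcripts of 30 genes of cholesterol synthesis, its control by sterols, and cholesterol uptake, transport and efflux were examined in mouse liver after an overdose of acetaminophen (APAP), an analgesic that is toxic to the liver at high dose. The genes were taken by symbol from the deposited mRNA table, which lists 21870 genes. All 30 had a row there, and all 30 were among the 11557 genes that reached at least 0.5 FPKM (fragments scaled to transcript length and library size) in at least 3 libraries and were tested. There were 20 genes of the synthesis steps, 4 of the control of SREBP (sterol regulatory element-binding protein), 3 of uptake and intracellular transport and 3 of efflux.

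The libraries came from livers of wild-type C57 BL6 mice that were 8 weeks old and weighed 20 g on average. The control group received saline, and the APAP group received 500 mg/kg APAP, injected intraperitoneally. In the dmPGE2+APAP group the same APAP dose followed 1 h after 300 μg/kg dmPGE2, a stable prostaglandin E2 analogue given by that route too. Livers were taken 6 h after APAP, and each group had 3 libraries of RNA depleted of ribosomal RNA. No group received dmPGE2 alone. The labels do not say whether the 3 libraries of a group are 3 animals, so the p-values measure the spread between these libraries, which may in part be technical. The header of the control columns is not explained in the labels; these columns were read as controls by elimination, since the remaining headers name APAP, with or without PGE2.

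Liver cells make cholesterol from acetyl-CoA. The mevalonate and isoprenoid steps build farnesyl diphosphate, squalene synthase and squalene epoxidase commit it to sterols, and a last series of enzymes turns lanosterol into cholesterol. When sterols are scarce, SCAP (encoded by Scap) escorts the SREBP precursor from the endoplasmic reticulum to the Golgi, where it is cleaved and released as an activator of the synthesis genes. INSIG proteins (Insig1, Insig2) hold SCAP in the endoplasmic reticulum when sterols are abundant. Hepatocytes send cholesterol into bile through the ABCG5/ABCG8 transporter and onto apolipoprotein A-I through ABCA1.

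Upstream sequence was examined because many of the synthesis genes varied together, and because Insig2, Lbr, Abcg5 and Abcg8 differed from control in both treated groups. RefSeq windows of 300 bases on GRCm38.p6 (250 before and 50 after an annotated transcription start) were found for 25 of the 30 genes by symbol, and none was used for Fdps, Fdft1, Sqle, Npc1 and Stard4. Both strands were searched for CCAAT, the box bound by the factor NF-Y, for TCACNCCAC, one form of the sterol regulatory element, and for the LXR element DR4. CCAAT was present in 22 of the 25 genes (88.0%), against 41.1% of all 27025 genes with such windows. TCACNCCAC was present in 1 of the 25, Hmgcs1, against 1.44% of all genes, and DR4 in 0 of the 25, against 0.0962%. These matches describe letters in a window and were not tested. The stretches below lie just upstream of an annotated start and outside annotated exons. The Lbr locus reaches beyond its stretch, to 181843046. Mvd and Sc5d are shown as synthesis genes that were lower after APAP, and Hmgcs1 was singled out after its match was seen. Capitals mark CCAAT or its complement ATTGG and, in Hmgcs1, the sterol element. The Abcg5 start and the nearest Abcg8 start face away from each other, and the whole interval between them is shown. Abcg8 has another annotated start, whose upstream stretch overlaps Abcg5 exons and is not shown.
Insig2 (chr1:121332590-121332689, minus strand, GRCm38.p6): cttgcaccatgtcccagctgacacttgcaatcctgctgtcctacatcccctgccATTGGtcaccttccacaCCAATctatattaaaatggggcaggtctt
Lbr (chr1:181842402-181842501, minus strand): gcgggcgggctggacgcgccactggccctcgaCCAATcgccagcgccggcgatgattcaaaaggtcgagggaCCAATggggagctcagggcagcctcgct
Mvd (chr8:122443423-122443522, minus strand): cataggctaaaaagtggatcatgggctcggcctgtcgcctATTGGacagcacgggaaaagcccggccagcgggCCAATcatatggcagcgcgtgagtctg
Sc5d (chr9:42264301-42264400, minus strand): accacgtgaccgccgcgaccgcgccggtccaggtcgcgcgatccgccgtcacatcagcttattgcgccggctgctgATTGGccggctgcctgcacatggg
Hmgcs1 (chr13:119690201-119690350, plus strand): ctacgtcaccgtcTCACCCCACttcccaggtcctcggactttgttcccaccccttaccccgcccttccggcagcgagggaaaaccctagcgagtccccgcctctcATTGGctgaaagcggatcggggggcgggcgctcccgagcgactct
Abcg5-Abcg8 (chr17:84683012-84683120, plus strand): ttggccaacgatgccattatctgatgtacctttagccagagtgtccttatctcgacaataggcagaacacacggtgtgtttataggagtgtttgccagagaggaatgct

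Positions are counted from the annotated start, with -1 the base before it, and give the first base of a match. The Insig2 stretch holds CCAAT at -29 and its complement at -46. Insig2 has other annotated starts, and no CCAAT was found in their windows. In Hmgcs1 the sterol element is at -137 and the complement of CCAAT at -45. The interval between Abcg5 and Abcg8 holds none of the 3 motifs. The CCAAT matches of Abcg8 lie outside it, at -114 and -175.

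The 3 controls differed among themselves on the synthesis genes. FPKM were divided by a scale factor per library and taken as log2(value + 0.1), and each of the 20 synthesis genes was set against its mean over the 9 libraries. The median deviation was -0.22 in control 1, 0.58 in control 2 and 0.64 in control 3. It was -0.13, -0.09 and -0.31 in the 3 APAP libraries and -0.15, -0.06 and 0.10 in the 3 dmPGE2+APAP libraries. Control 1 thus lay among the treated libraries, and controls 2 and 3 lay above all of them. Control 1 was the lowest control for 17 of the 20 synthesis genes, while it was the lowest for 28.74% of all genes tested. The highest control was control 3 for 13 of them and control 2 for 7. Control 1 fell within the range of the 6 treated libraries for 12 synthesis genes and below it for 7, whereas control 2 was above that range for 12 and control 3 for 14. Of all genes tested, control 1 was within the treated range for 46.72% and below it for 23.96%. The share of all genes tested that was above the treated range was similar in controls 1, 2 and 3 (29.32%, 29.55% and 29.13%). The median SD of the synthesis genes between controls was 0.53 on the log2 scale, against 0.16 in each of the treated groups and 0.17 between controls over all genes. The counts of called genes among the 30 are therefore given with all controls and also without control 1 or without control 3. Control 1 was the lowest control for most synthesis genes, so leaving it out moves their estimates down by construction. Calls gained in that way are no further support for a fall.

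**Figure D1:**
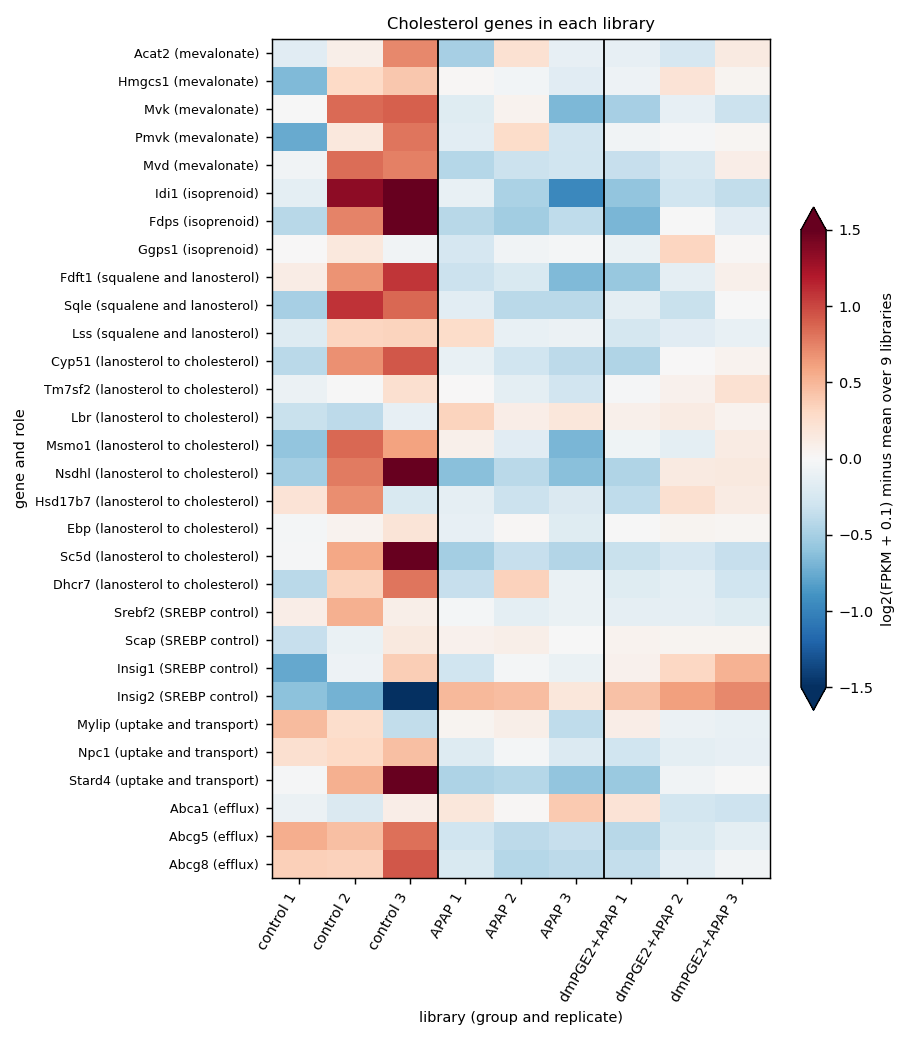
Level of each of the 30 genes (rows, with role) in each of the 9 libraries (columns), as log2(deposited FPKM + 0.1) minus the gene's mean over the libraries, before rescaling; red is above the mean and blue below, and the colour scale ends at 1.5 in both directions. Most synthesis rows are reddest in control 2 or control 3 and paler or blue in control 1, but not those of Lbr and Ggps1. Hsd17b7 is reddest in control 2 but low in control 3. In control 1 the median deviation of the synthesis genes after rescaling was -0.22; Insig2 shows the opposite order, low in the controls and high in the treated libraries.

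The synthesis genes differed in how closely they followed this pattern. Across the 9 libraries, Pearson's r with the median of the other synthesis genes was 0.96 for Cyp51, 0.94 for Idi1 and for Nsdhl, 0.92 for Mvd and for Sqle and 0.91 for Fdps and for Fdft1. Stard4, which is no synthesis gene but carries sterols between membranes, had r of 0.90. The coefficient was 0.38 for Ebp, 0.35 for Tm7sf2, 0.22 for Hsd17b7 and -0.05 for Ggps1. It was negative for Lbr (-0.63) and for Insig2 (-0.68). The libraries share their groups, so these coefficients over 9 points mix the group difference with the split of the controls and are given as a description.

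APAP was compared with control to ask which of these genes respond to the overdose. Of the 30 genes, 10 were called at a Benjamini-Hochberg adjusted p under 0.05 by limma. Insig2 and Lbr were higher, and Mvd, Idi1, Fdft1, Sc5d, Npc1, Stard4, Abcg5 and Abcg8 were lower. Over all genes tested, 10.6% were called higher and 10.3% lower. The fitted change was below 0 for 24 of the 30, with a median log2 change of -0.30, and for 18 of the 20 synthesis genes, with a median of -0.40; over all genes the median was -0.04. At an unadjusted p under 0.05, 15 of the 30 passed, as did 4146 of all 11557 genes tested. Without control 3, 8 genes were called (3 higher, against 10.3% of all genes, and 5 lower, against 9.81%). Without control 1, 16 were called (2 higher, against 8.62%, and 14 lower, against 6.93%). Without control 2, 4 were called (2 higher, against 7.94%, and 2 lower, against 6.11%). Values per library are given below as deposited FPKM in the order of the replicates 1, 2 and 3. Fold changes are on the rescaled log2(FPKM + 0.1) scale. Orders of single libraries are those of the deposited values unless stated. The scale factors ran from 0.9487 to 1.104, and rescaling changed that order for some genes. Rescaling raised log2 differences from control by 0.101 for APAP and by 0.131 for dmPGE2+APAP, and the folds are relative to these shifts.

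Within the mevalonate steps, Mvd was called lower and the other 4 genes did not pass. Mvd, whose enzyme decarboxylates mevalonate diphosphate (ENSMUSG00000006517, GRCm38 chromosome 8, 122433601 to 122443422), had 1.23, 2.37 and 2.24 FPKM in the controls, 0.930, 1.01 and 1.02 after APAP and 0.994, 1.07 and 1.38 in the dmPGE2+APAP group. Every APAP library was below every control, and control 1 was the nearest to them. The level was 1.70-fold lower after APAP (log2 -0.76, SE 0.23, adjusted p = 0.0441). That call was lost without any single library other than control 1, with an adjusted p of up to 0.136. Mvk, mevalonate kinase, had 2.75, 5.05 and 5.24 FPKM in the controls, 2.42, 2.87 and 1.70 after APAP and 1.93, 2.53 and 2.20 in the dmPGE2+APAP group. One APAP library lay above control 1, and the difference did not pass (log2 -0.75, SE 0.26, adjusted p = 0.0739). It was -1.02 without control 1 (adjusted p = 0.0202) and -0.62 without control 3 (adjusted p = 0.166). Hmgcs1, which makes HMG-CoA, averaged 31.0 ± 11.0 FPKM in the controls (SD, n = 3) and 28.0 ± 1.87 after APAP. Acat2, the thiolase of the first step, averaged 22.7 ± 7.55 and 17.6 ± 4.39, and Pmvk, phosphomevalonate kinase, 5.19 ± 2.64 and 4.38 ± 0.942. These 3 had adjusted p-values of at least 0.497, and their controls spread more widely than the difference of the means.

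Of the 3 isoprenoid genes, Idi1 was called. Idi1, the isomerase of isopentenyl diphosphate (ENSMUSG00000058258, chromosome 13, 8885501 to 8897974), had 8.43, 23.8 and 29.1 FPKM in the controls, 8.62, 6.71 and 4.74 after APAP and 6.14, 7.56 and 7.23 in the dmPGE2+APAP group. Control 1 was slightly below the highest APAP library, and the other controls were far above. The fitted level was 2.56-fold lower after APAP (log2 -1.35, SE 0.40, adjusted p = 0.0414), and this call too was kept only without control 1 (adjusted p = 0.00261) and lost without any other single library (adjusted p up to 0.136). Fdps, farnesyl diphosphate synthase, had 9.73, 21.9 and 48.1 FPKM in the controls, 9.75, 9.07 and 9.97 after APAP and 8.11, 13.0 and 11.6 in the dmPGE2+APAP group. As deposited, control 1 was within the APAP range, and after rescaling it was slightly below that range. Controls 2 and 3 were above all treated libraries. It did not pass with all controls (log2 -1.07, SE 0.44, adjusted p = 0.117) and passed without control 1 (adjusted p = 0.01). Without control 3 the change was -0.53 and did not pass (adjusted p = 0.250). Ggps1, which branches off to geranylgeranyl diphosphate for protein prenylation, averaged 2.69 ± 0.219 and 2.41 ± 0.212 FPKM, and its fitted change was -0.05.

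Fdft1, squalene synthase (ENSMUSG00000021273, chromosome 14, 63145150 to 63179578), had 8.73, 13.0 and 17.1 FPKM in the controls, 6.44, 6.91 and 5.09 after APAP and 5.42, 7.35 and 8.54 in the dmPGE2+APAP group. As deposited, all controls were above all treated libraries, with control 1 close to the highest of them. After rescaling, control 1 lay within the treated range. The fitted level was 1.89-fold lower after APAP (log2 -0.92, SE 0.24, adjusted p = 0.0269). The call was lost without control 2, control 3, APAP 1 or APAP 3, with an adjusted p of up to 0.0953. Sqle, squalene epoxidase, had 3.25, 9.92 and 8.45 FPKM in the controls, 4.13, 3.46 and 3.48 after APAP and 4.15, 3.64 and 4.59 in the dmPGE2+APAP group. Control 1 was below all 6 treated libraries and the other controls above them. The difference was -0.70 (SE 0.34, adjusted p = 0.171) with all controls. It was -1.18 (adjusted p = 0.00359) without control 1 and -0.55 (adjusted p = 0.333) without control 3. Lss, lanosterol synthase, averaged 4.88 ± 0.974 in the controls and 4.45 ± 0.714 after APAP, and its fitted change was -0.02.

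Among the 9 genes between lanosterol and cholesterol, Sc5d was called lower and Lbr higher. Sc5d, lathosterol oxidase (ENSMUSG00000032018, chromosome 9, 42251595 to 42264256), had 36.0, 54.5 and 116.6 FPKM in the controls, 25.6, 28.6 and 26.8 after APAP and 28.8, 30.7 and 28.6 in the dmPGE2+APAP group. The treated libraries lay together below all controls, and control 3 was far above the other controls. Its level was 2.11-fold lower after APAP (log2 -1.07, SE 0.32, adjusted p = 0.0420) and -0.64 on the log2 scale without control 3 (adjusted p = 0.0256). Leaving out 1 library at a time lost the call in 7 of 9 cases, up to an adjusted p of 0.111. Lbr, the lamin B receptor, which also holds sterol reductase activity (ENSMUSG00000004880, chromosome 1, 181815335 to 181843046), moved the other way. Its level was 4.29, 4.12 and 4.95 FPKM in the controls, 6.84, 5.84 and 6.12 after APAP and 5.70, 5.94 and 5.61 in the dmPGE2+APAP group. No treated library overlapped a control. Lbr rose 1.5-fold after APAP (log2 0.58, SE 0.093, adjusted p = 0.00322), and the call held under all 20 alternative settings. Tm7sf2, the other sterol reductase of the same step, averaged 33.5 ± 4.02 in the controls and 29.4 ± 3.04 after APAP (log2 -0.09, adjusted p = 0.627).

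The other genes of this stretch did not pass. Cyp51, lanosterol demethylase, had 9.92, 21.3 and 25.2 FPKM in the controls, 12.2, 10.7 and 10.02 after APAP and 9.65, 13.2 and 13.7 in the dmPGE2+APAP group. As deposited, control 1 was within the treated range, and after rescaling it was below that range. The change of Cyp51 was -0.57 (SE 0.29, adjusted p = 0.196). It was -0.96 without control 1 (adjusted p = 0.00918) and -0.34 without control 3 (adjusted p = 0.438). Nsdhl, a dehydrogenase of sterol demethylation, had 2.53, 6.32 and 11.0 FPKM in the controls, 2.33, 2.72 and 2.33 after APAP and 2.63, 4.0 and 4.06 in the dmPGE2+APAP group. Control 1 was within the treated range and the other controls were above it, and the change was -1.06 (SE 0.42, adjusted p = 0.101). It was -1.61 without control 1 (adjusted p = 0.00581) and -0.62 without control 3 (adjusted p = 0.2345). Msmo1, which acts in the same demethylation, averaged 28.6 ± 12.9 and 18.4 ± 4.75 and passed only without control 1 (adjusted p = 0.0419). Its adjusted p was 0.385 with all controls and 0.592 without control 3. Hsd17b7 averaged 19.5 ± 6.29 and 13.8 ± 0.917, Ebp 58.1 ± 4.46 and 51.8 ± 3.77, and Dhcr7, the last reductase of one branch, 13.8 ± 5.53 and 11.0 ± 2.75.

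Of the 4 genes that control SREBP, Insig2 changed most. Insig2 (ENSMUSG00000003721, chromosome 1, 121281527 to 121332589) had 65.2, 61.0 and 33.5 FPKM in the controls, 140.4, 138.2 and 112.2 after APAP and 136.0, 152.7 and 165.3 in the dmPGE2+APAP group. Every treated library was well above every control, and the 2 treated groups overlapped. Insig2 rose 2.72-fold after APAP (log2 1.44, SE 0.26, adjusted p = 0.00525). Control 3, the lowest of the controls here, moved the estimate: without it the log2 change was 1.11 (adjusted p = 0.00179), and the call held under all 20 alternatives. Its paralogue Insig1, which is itself a target of SREBP, had 41.3, 66.5 and 90.5 FPKM in the controls, 57.2, 68.6 and 65.3 after APAP and 73.2, 87.2 and 100.9 in the dmPGE2+APAP group. The controls enclosed the APAP libraries, and no change was called (log2 0.12, SE 0.24, adjusted p = 0.763). Scap had 29.8, 35.3 and 42.0 FPKM in the controls, 39.7, 40.3 and 37.7 after APAP and 39.2, 39.0 and 39.0 in the dmPGE2+APAP group. As deposited, control 3 was above all treated libraries and the other controls were below them. After rescaling, control 3 lay within the treated range. The change of Scap was 0.25 (SE 0.11, adjusted p = 0.135), and 0.15 with no rescaling (adjusted p = 0.366). It passed only without control 3 (log2 0.34, adjusted p = 0.0459) and when limma weighted each library by its quality (array weights). Control 3 was the highest control for Scap, so leaving it out raises the estimate by construction. Srebf2, which encodes the SREBP that drives these genes, averaged 11.2 ± 2.08 and 8.77 ± 0.375 (log2 -0.24, adjusted p = 0.235).

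**Figure D2:**
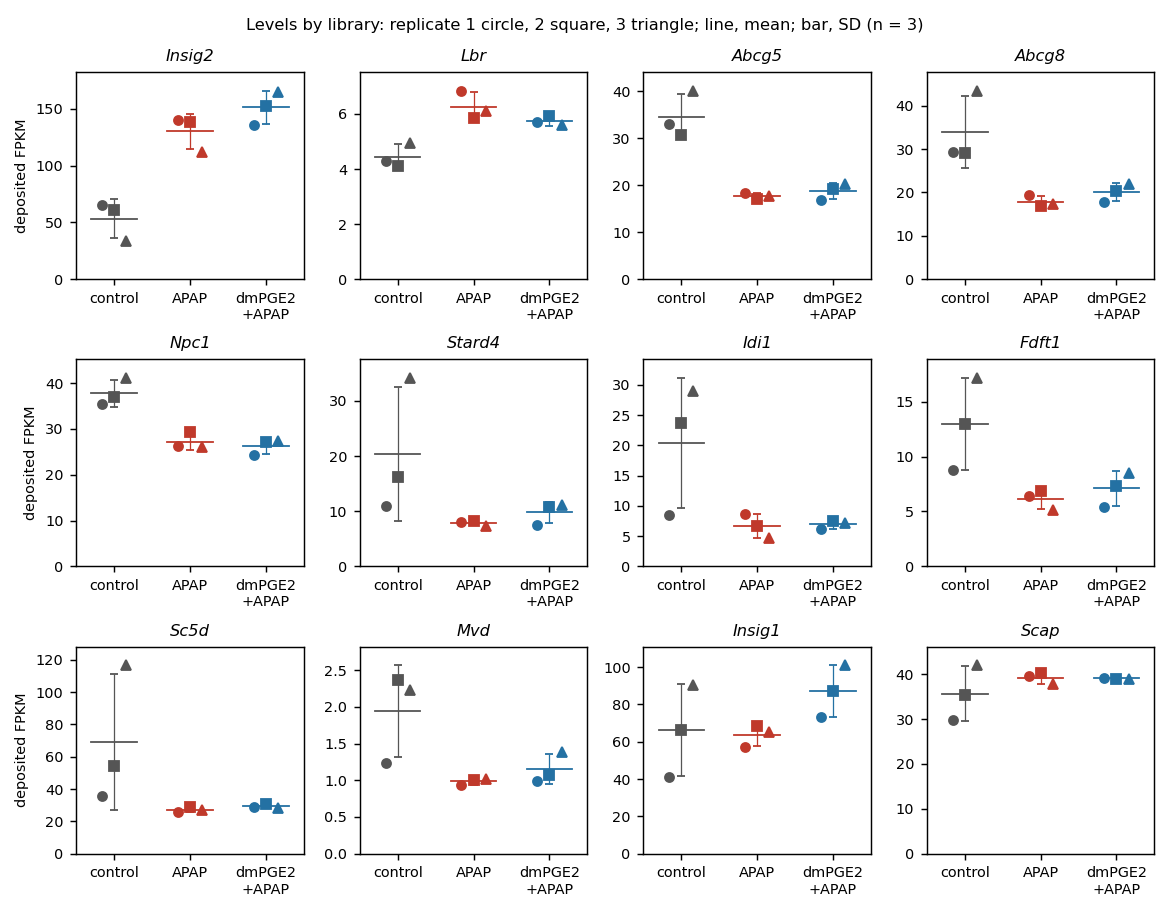
Deposited FPKM (y axis, from 0) of 12 genes in the control, APAP and dmPGE2+APAP groups (x axis); markers give replicates 1 (circle), 2 (square) and 3 (triangle), lines the mean and bars the SD (n = 3). Insig2 and Lbr are above all controls in the 6 treated libraries and Abcg5, Abcg8 and Npc1 below them, whereas Idi1, Stard4, Sc5d, Mvd and Insig1 have controls that are spread widely.

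Npc1 and Stard4 were called lower among the 3 genes of uptake and intracellular transport. Npc1, which exports cholesterol from late endosomes (ENSMUSG00000024413), had 35.5, 36.9 and 41.1 FPKM in the controls, 26.2, 29.2 and 26.0 after APAP and 24.2, 27.1 and 27.4 in the dmPGE2+APAP group. The controls differed little and lay above all treated libraries. The level was 1.30-fold lower after APAP (log2 -0.37, SE 0.095, adjusted p = 0.0231). This small change was lost without control 2, APAP 1 or APAP 3, with an adjusted p of up to 0.0737. Stard4 (ENSMUSG00000024378) had 11.02, 16.2 and 34.1 FPKM in the controls, 8.07, 8.27 and 7.39 after APAP and 7.55, 10.8 and 11.1 in the dmPGE2+APAP group. The APAP libraries agreed closely and lay below all controls, of which control 3 was highest. Its level was 2.14-fold lower (log2 -1.10, SE 0.33, adjusted p = 0.0422) and -0.68 on the log2 scale without control 3 (adjusted p = 0.0471); 6 of 9 single omissions lost the call, with an adjusted p of up to 0.121. Mylip, a ubiquitin ligase that is induced by LXR and degrades lipoprotein receptors, averaged 5.46 ± 1.56 and 4.64 ± 0.81 (log2 -0.10, adjusted p = 0.790).

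The 2 genes of the biliary cholesterol transporter fell together after APAP. Abcg5 (ENSMUSG00000040505, chromosome 17, 84658234 to 84683011) had 33.0, 30.8 and 40.1 FPKM in the controls, 18.3, 17.2 and 17.7 after APAP and 16.9, 19.2 and 20.3 in the dmPGE2+APAP group. Abcg8 (ENSMUSG00000024254, chromosome 17, 84657520 to 84700333) had 29.3, 29.1 and 43.5 FPKM in the controls, 19.4, 16.9 and 17.3 after APAP and 17.8, 20.4 and 21.9 in the dmPGE2+APAP group. No treated library of either gene reached the lowest control, and the transcripts of the pair had similar levels per length in every group. Abcg5 fell 1.80-fold (log2 -0.85, SE 0.10, adjusted p = 0.000931). Abcg8 fell 1.74-fold (log2 -0.80, SE 0.14, adjusted p = 0.00560), and both calls held under all 20 alternatives. Abca1 had 36.5, 33.3 and 41.7 FPKM in the controls, 43.8, 39.3 and 51.1 after APAP and 44.8, 31.9 and 31.2 in the dmPGE2+APAP group. The groups overlapped in the deposited values, while after rescaling all APAP libraries were above all controls. The change of 0.37 (SE 0.15) did not pass (adjusted p = 0.122).

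**Figure D3:**
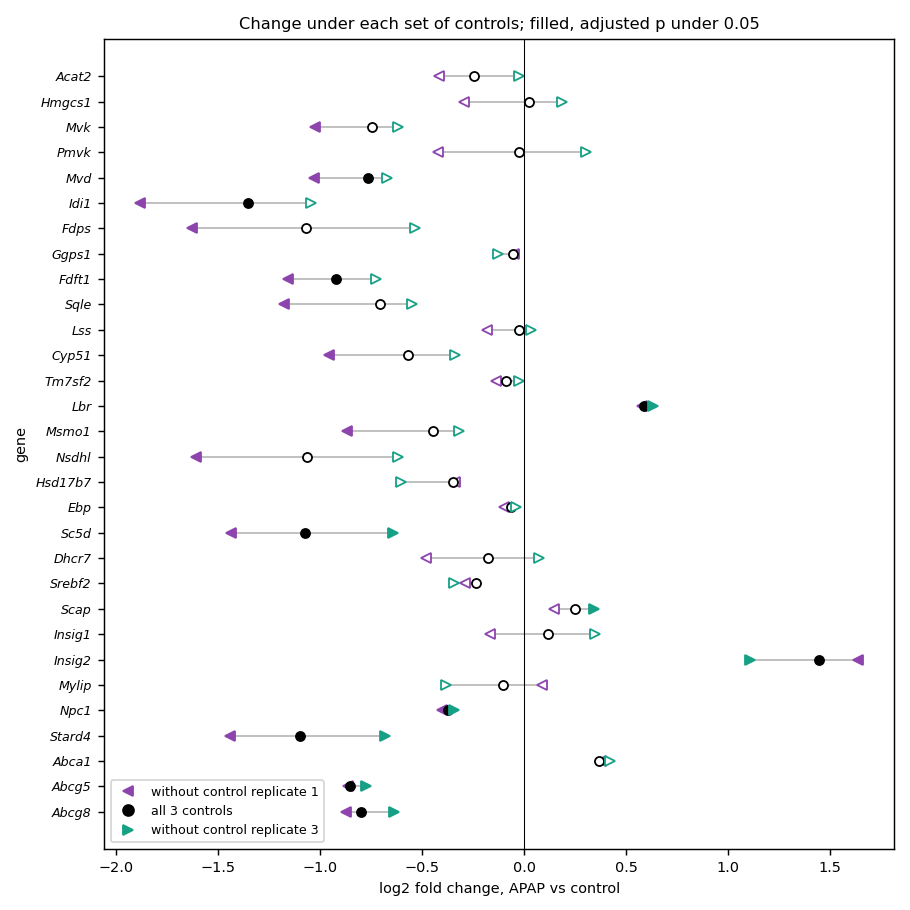
Log2 fold change of each of the 30 genes (y axis) between APAP and control (x axis), fitted with all controls (circle), without control 1 (left triangle) and without control 3 (right triangle); filled markers have an adjusted p under 0.05. Lbr, Npc1 and Abcg5 hardly move between the 3 fits, while Fdps, Nsdhl and Idi1 move most, Fdps from -1.63 to -0.53.

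Some of these loci share exonic bases with other genes in the GENCODE annotation, and it is not recorded whether the quantification used the strand of the reads. The share was 26.7% for Fdps (Gm43738, same strand), 18.3% for Fdft1 (Ctsb, opposite strand) and 13.2% for Scap. It was 12.1% for Tm7sf2 (Vps51, same strand) and for Hmgcs1, and 9.2% for Idi1. For Lbr it was 10.7%, shared with Dnah14 (opposite strand) and with Gm26004, a ribosomal RNA gene on the same strand. For Ggps1 it was 5.4%, for Npc1 5.3%, for Cyp51 3.8% and for Lss 3.5%. Abcg5 and Abcg8 overlap each other by 82 exonic bases on opposite strands. How much of the values of these genes came from shared bases was not measured, and these shares do not bound it. Insig2, Mvd, Sc5d and Stard4 share none.

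Other genes of sterol handling were counted from 5 lists. Over all genes tested, 10.6% were called higher and 10.3% lower after APAP, and 10.3% and 9.81% without control 3. The lists are short and were not tested against these shares, so their counts are not read as a response of a list. Of 13 genes of SREBP processing and sterol sensing, 1 was higher and 3 were lower after APAP, with a median log2 change of -0.15. Rnf145, a ubiquitin ligase that responds to sterols, fell from 7.47 ± 1.57 to 3.35 ± 0.174 FPKM (log2 -1.01, adjusted p = 0.00162). Erlin2, a membrane scaffold of the endoplasmic reticulum, was also lower (log2 -0.51, adjusted p = 0.0130). Fbxw7, which marks nuclear SREBP for degradation, was higher (0.49, adjusted p = 0.0236). Rnf145 and Erlin2 were the 2 genes of this list that passed without control 3. Srebf1, which encodes the other SREBP and is named here after its values were seen, had 12.1, 15.8 and 67.0 FPKM in the controls and between 10.4 and 18.4 in the 6 treated libraries, so that control 3 stood apart for it too.

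Of 16 genes of uptake, storage and trafficking that were tested of 18, 1 was higher and 2 were lower (median log2 change 0.01). Stard5, a sterol carrier, fell from 45.7 ± 1.73 to 21.3 ± 0.509 FPKM (log2 -0.99, adjusted p = 0.00259). Gramd1a, which moves cholesterol from the plasma membrane, was higher (log2 0.44, adjusted p = 0.0101). Of 6 LXR genes, 1 was higher and 2 were lower (median -0.05). Rxra, the partner of LXR, fell from 136.6 ± 5.99 to 86.6 ± 3.87 FPKM (log2 -0.56, adjusted p = 0.00428). Abcg1, a further efflux transporter, was lower (-0.88, adjusted p = 0.00802), and Lpcat3, a phospholipid-remodelling target of LXR, was higher (0.55, adjusted p = 0.0109). The changes of Stard5, Gramd1a, Rxra, Abcg1 and Lpcat3 also passed without control 3.

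In the conversion of cholesterol to bile acids, 1 of 6 tested genes was higher and 1 lower (median -0.09). Cyp7a1, which starts the main route from cholesterol to bile acids, had 17.5, 43.3 and 40.5 FPKM in the controls, 1.99, 5.75 and 6.72 after APAP and 8.40, 57.1 and 34.4 in the dmPGE2+APAP group. All APAP libraries were below all controls, and the dmPGE2+APAP libraries covered the widest range. Cyp7a1 fell by 2.75 on the log2 scale after APAP (adjusted p = 0.0235), and without control 3 the call was lost (adjusted p = 0.0551). Cyp39a1, an oxysterol hydroxylase, was higher (0.87, adjusted p = 0.0479; without control 3, adjusted p = 0.116). Of 12 genes that use isoprenoids outside sterol synthesis (median 0.02), Dolk, dolichol kinase, was the 1 called, lower by log2 -0.45 (adjusted p = 0.0336), and without control 3 none was called, with 3 at an unadjusted p under 0.05.

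A second readout of the same genes came from the deposited lncRNA table, which holds 54836 transcripts, among them 61 non-coding isoforms of 25 of the 30 genes (46 retained introns and 15 processed transcripts). Of these, 46 reached 0.1 FPKM in 3 libraries and were tested. After APAP 4 were called higher and 0 lower, while 2.67% of all 22984 transcripts tested were called higher and 0.944% lower. They were isoforms of Insig2 and Lbr, whose mRNA also rose. The retained-intron transcript Insig2-211 had 0.224, 0.441 and 0.189 FPKM in the controls, 5.73, 1.83 and 1.59 after APAP and 5.36, 3.04 and 3.93 in the dmPGE2+APAP group. All treated libraries were above all controls, and APAP 1 was far above the other APAP libraries. It rose 7.02-fold (log2 2.81, SE 0.49, adjusted p = 0.0188). Insig2-205 rose 3.87-fold (adjusted p = 0.0193), Insig2-206 rose 3.68-fold (adjusted p = 0.0187) and Lbr-203 rose 3.94-fold (adjusted p = 0.0148). Insig2-205, Insig2-206 and Insig2-211 were also called in the dmPGE2+APAP group against the same controls, among 1.27% of all transcripts higher and 0.535% lower. Insig2-211 was 11.4-fold higher there (adjusted p = 0.0113). Without control 3, 1 isoform was called after APAP, Lbr-203 (adjusted p = 0.0475; 1.06% of all transcripts higher and 0.456% lower), and 1 in the dmPGE2+APAP group, Insig2-211 (adjusted p = 0.0406; 0.541% and 0.259%). These transcripts share exons with the coding isoforms and are not independent of the mRNA values.

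**Figure D4:**
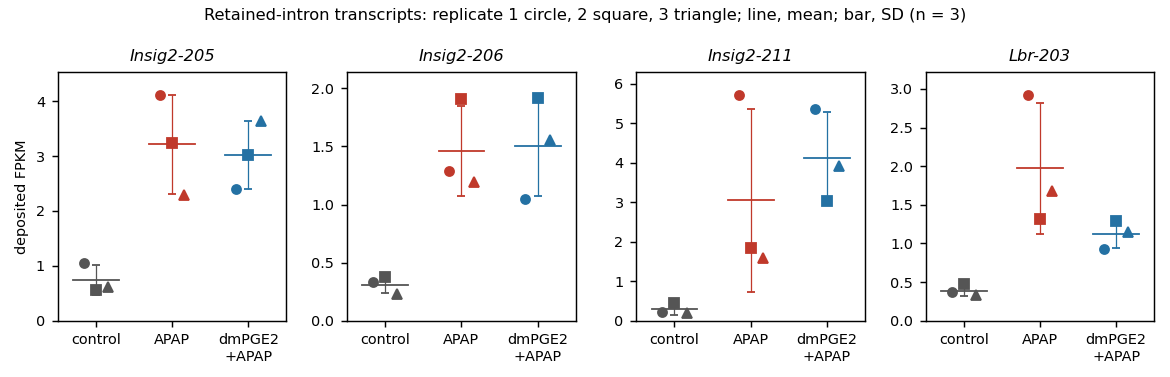
Deposited FPKM (y axis, from 0) of the 4 retained-intron transcripts called after APAP, in the control, APAP and dmPGE2+APAP groups (x axis); markers give replicates 1 (circle), 2 (square) and 3 (triangle), lines the mean and bars the SD (n = 3). The controls stay between 0.189 and 1.05 FPKM, and every treated library is above the controls of the same transcript.

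The dmPGE2+APAP group was compared with the same controls, so its values and those of APAP are set side by side and not counted as separate support. Of the 30 genes, 5 were called: Insig2 and Lbr higher and Abcg5, Abcg8 and Npc1 lower. Over all genes, 8.51% were called higher and 7.81% lower. The median log2 change of the 30 was -0.24 and that of the 20 synthesis genes -0.26, against -0.01 over all genes. Insig2 rose 3.23-fold (log2 1.69, SE 0.26, adjusted p = 0.00314) and Lbr 1.41-fold (0.49, SE 0.093, adjusted p = 0.00836). Abcg5 fell 1.68-fold (-0.74, SE 0.10, adjusted p = 0.00204), Abcg8 fell 1.52-fold (-0.61, SE 0.14, adjusted p = 0.0222) and Npc1 fell 1.31-fold (-0.39, SE 0.095, adjusted p = 0.0232). The Abcg8 call was lost without dmPGE2+APAP 1 or 2 (adjusted p up to 0.0727), and that of Npc1 without control 2, dmPGE2+APAP 1 or dmPGE2+APAP 2. Of the synthesis genes that were called lower after APAP, none passed here: Idi1 had -1.23 (SE 0.40, adjusted p = 0.0684), Sc5d -0.93 (SE 0.32, adjusted p = 0.0813), Fdft1 -0.70 (SE 0.24, adjusted p = 0.0835) and Mvd -0.55 (SE 0.23, adjusted p = 0.139). Stard4 had -0.78 (SE 0.33, adjusted p = 0.139).

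Which genes were called again depended on the controls. Without control 3, 7 of the 30 were called (4 higher, against 8.3% of all genes, and 3 lower, against 6.88%). Scap (log2 0.37, adjusted p = 0.0438) and Insig1 (0.82, adjusted p = 0.0342) were added to the 5 genes above. Control 3 was the highest control for both, so leaving it out raises their estimates by construction. These gains are no further support for a rise. Without control 1, 15 were called (2 higher, against 6.66%, and 13 lower, against 4.91%), 9 of them synthesis genes that were lower. The share of all genes called with all controls was 8.51% higher and 7.81% lower. With all controls, in the other lists, 0 genes were higher and 2 lower in SREBP processing, 1 and 2 in uptake and trafficking, 0 and 1 in LXR, 0 and 0 in bile acid conversion and 2 and 0 in the isoprenoid branch, where Rce1 and Rabggtb, which act on prenylated proteins and in prenyl transfer, were the 2. Without control 3, 0 were higher and 1 lower in SREBP processing, 0 and 1 in uptake and trafficking, 1 and 1 in LXR, 0 and 0 in bile acid conversion and 1 and 0 in the isoprenoid branch, where Rce1 was the 1.

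**Figure D5:**
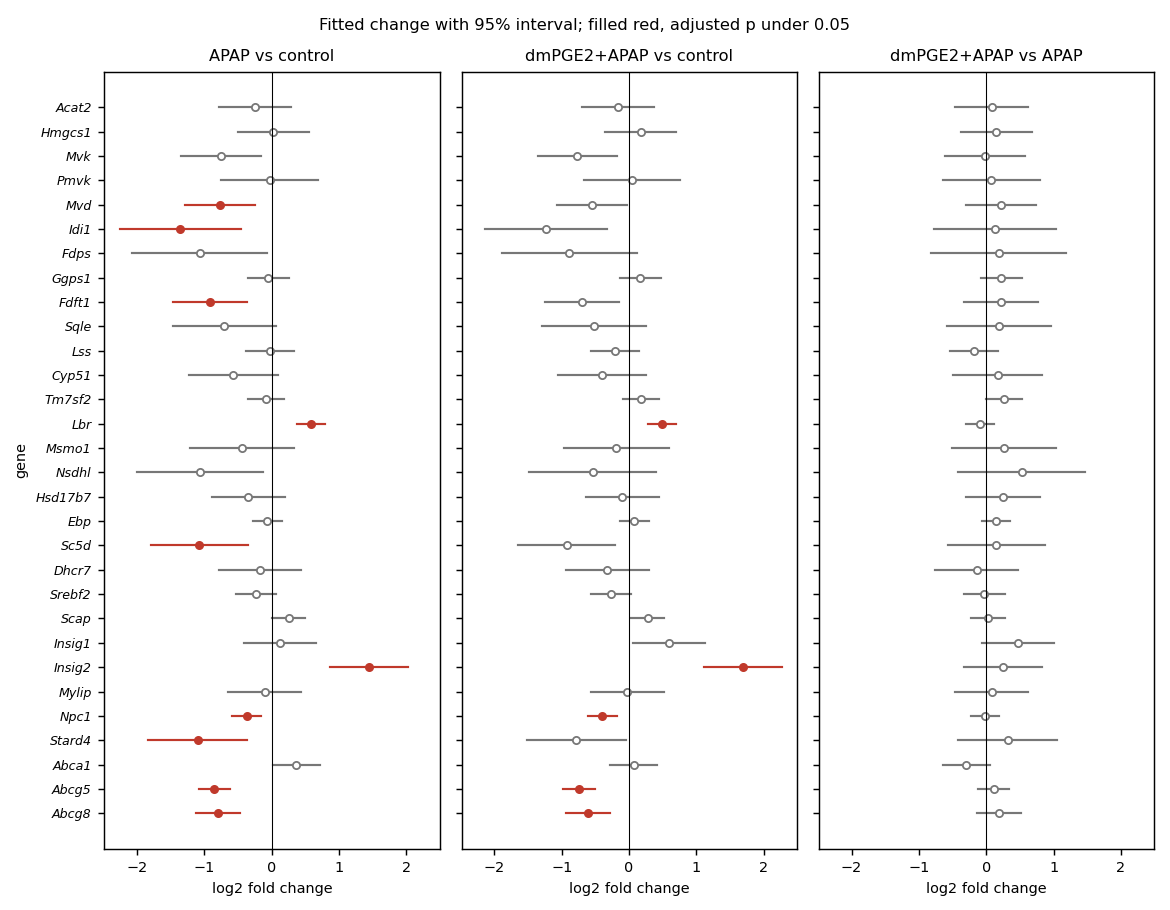
Fitted log2 fold change (x axis) of each of the 30 genes (y axis) in the 3 comparisons, with 95% intervals from limma; red filled points have an adjusted p under 0.05. There are 10 such points for APAP against control, 5 for dmPGE2+APAP against control and 0 for dmPGE2+APAP against APAP, where the points lie between -0.30 and 0.52.

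The comparison of dmPGE2+APAP with APAP asks whether dmPGE2 changed the response to the overdose. None of the 30 genes was called by limma, and neither was any of the 11557 genes tested (0.0% higher and 0.0% lower); 1 of the 30 and 1069 of all genes had an unadjusted p under 0.05. None was called in any of the 20 alternatives. The fitted change was above 0 for 23 of the 30, with a median of 0.15, while 54.89% of all genes were above 0, with a median of 0.02. Among the synthesis genes 16 of 20 were above 0. Tm7sf2 had the smallest p (29.4 ± 3.04 against 34.6 ± 3.03 FPKM, 1.2-fold higher, adjusted p = 0.536). Nsdhl had the largest fitted difference (1.44-fold higher, 95% interval 0.749 to 2.76), from 2.46 ± 0.225 to 3.56 ± 0.809 FPKM. Insig1 was next, with 63.7 ± 5.84 FPKM after APAP and 87.1 ± 13.9 with dmPGE2 (1.39-fold higher, interval 0.957 to 2.01, adjusted p = 0.575). All Insig1 values of the dmPGE2+APAP group were above all APAP values, and control 3 was within the range of the dmPGE2+APAP group. Abca1 had the lowest estimate (0.814-fold, interval 0.639 to 1.04, adjusted p = 0.591).

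The intervals of this comparison show what size of difference the libraries could still hold. For 24 of the 30 genes the 95% interval stayed within 2-fold in either direction, and for 10 it stayed within 1.5-fold. Lbr (0.939-fold, interval 0.812 to 1.09), Npc1 (0.986-fold, 0.850 to 1.14) and Abcg5 (1.077-fold, 0.917 to 1.27) had the narrowest ones among the genes called against control. Insig2 had 1.19-fold, with an interval from 0.796 to 1.77. For Idi1 (1.09-fold, 0.583 to 2.04) and Fdps (1.14-fold, 0.568 to 2.27) a change of 2-fold was within the interval. In the 5 other lists 0 genes were called. Of the non-coding isoforms 0 of 46 were called, with 5 at an unadjusted p under 0.05 (0.0% of all transcripts called).

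In bulk liver, fewer cells of a type and less RNA per cell cannot be told apart. The 6 hepatocyte markers, the check of the liver label, had summed levels of 31200 to 34470 FPKM in the controls, 37810 to 44300 after APAP and 38610 to 43070 in the dmPGE2+APAP group, and 0 of 6 were called after APAP. Of 8 pericentral markers, 3 fell after APAP (median log2 change -0.77), and their summed level was 4027 to 5193 FPKM in the controls, 2941 to 3735 after APAP and 3863 to 4170 in the dmPGE2+APAP group. Of 8 periportal markers, 1 rose and 1 fell. Of 5 tested neutrophil markers, 4 rose, with summed levels over 8 genes of 2.45 to 6.79, 10.1 to 42.3 and 5.36 to 11.6 FPKM. Of 8 macrophage markers, 1 was called higher after APAP and 0 lower, but the fitted change was below 0 for 7 (median log2 change -0.19). Their summed level was 98.2 to 112.0 FPKM in the controls, 60.6 to 100.7 after APAP and 104.4 to 109.2 in the dmPGE2+APAP group. After APAP, 2 of 7 sinusoidal endothelial markers rose and 1 fell, and 1 of 7 stellate and 1 of 4 tested cholangiocyte markers rose. No lymphocyte marker passed the filter on low values, and their sum stayed at or below 2.07 FPKM. Over all genes tested, 10.6% were called higher and 10.3% lower. Without control 3, 4 pericentral markers were lower, 1 periportal marker was lower and 0 higher, and 1 macrophage marker was higher and 1 lower. In the same fit 2 of 5 neutrophil, 4 of 7 stellate and 1 of 3 tested cholangiocyte markers were higher, and of the endothelial markers 2 were higher and 1 lower, against 10.3% higher and 9.81% lower over all genes. The part of these markers in the changes of the cholesterol genes was not tested.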

How the data were processed

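Liver RNA of 9 libraries in 3 groups was analysed. The authors deposited FPKM per gene (mRNA table) and per transcript (lncRNA table), per the file headers. The submitters' processing notes list HISAT2 and GRCm38 (mm10), with no role. The quantifier is not given in the sources used here. Tables deposited as read counts were not used. In the lncRNA one the larger values followed FPKM times the span of the locus, so they are not counts of reads. No such check of mRNA read counts is given here. Depth was therefore left unknown, and no interval for counting error is given. The mRNA table summed to 371958.2 to 393937.6 FPKM a library, and 9979 to 10321 genes reached 1 FPKM.

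FPKM were divided by a scale factor, an unweighted trimmed mean of log ratios (30% by ratio, 5% by abundance), 0.1 was added and log2 taken. limma 3.58.1 in R 4.3.3, with an abundance trend, was fitted to all 9 libraries as 3 group means (6 residual degrees of freedom), two-sided, with Benjamini-Hochberg adjustment over all features tested at 0.05; it was tested on simulated data. An exact test of 3 against 3 cannot go below 0.1. Per-library values were given for genes called with or without control 3 and for 6 more with the smallest p after APAP, and the other genes by mean and SD. Alternatives covered pseudocount, filter, scaling, weights, trend, block and omitted libraries. The genes and lists were chosen with earlier results of these data known. Sequences are from RefSeq and exon overlaps from GENCODE. Values of some genes counted in the lists are not reported here.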

Additional observations from a re-analysis of the deposited data

How the results depend on the processing

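For APAP against control, 10 of the 30 genes were called; 6 were called with no filter on low values and 5 in a fit of the 2 groups only. Leaving out 1 library at a time gave 4 to 16, with 4 without control 2, APAP 1 or APAP 3, and 16 without control 1. Over all genes, 7.94% were called higher and 6.11% lower without control 2, against 10.6% and 10.3% with all libraries. For dmPGE2+APAP against control, 5 were called; 9 with no rescaling, 8 with array weights, and 3 to 15 with 1 library left out, with 3 without dmPGE2+APAP 1 or dmPGE2+APAP 2. Isoform calls ranged from 1 to 5 around 4 after APAP and from 1 to 4 around 3 for dmPGE2+APAP. For most settings of this section, the share of all genes or transcripts called is not reported here. These counts therefore cannot tell a shift in the cholesterol genes from a shift in calls over all genes. For dmPGE2+APAP against APAP the count stayed at 0 in all 20 alternatives. Scale factors from the tested genes alone were an alternative chosen after seeing the data. Same-numbered libraries did not pair (correlations of their deviations -0.117 to 0.072); with the replicate number as a block, 9, 0 and 5 genes and 4, 0 and 2 isoforms were called in the 3 comparisons (APAP and dmPGE2+APAP against control first and last). For single genes, 1716 refits stayed on the same side of the threshold, 55 lost the call, 29 gained one and none changed the sign of a called gene; uncalled genes near 0 did change sign, after APAP Pmvk and Lss in 6 of 20 alternatives each and Hmgcs1 in 4. Without depth, the precision of low values such as Mvd is known only from the spread between libraries.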
